A study of Bos indicus with 9 samples.

Results

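The regions described here were hypothalamus peaks of accessible chromatin that overlapped a liver peak by at least 1 bp and overlapped no muscle peak. They were searched on chromosomes 1 to 29 from the first megabase onwards, and 608 of the 68177 hypothalamus peaks there met the rule. The regions were chosen by the measured peaks themselves, so their presence in liver and absence from muscle are a property of the selection and not a result. Because the rule used all 3 lists, the values below are descriptions with no test.

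The study profiled open chromatin with ATAC-seq, in which a transposase inserts sequencing adapters where DNA is not wrapped tightly in nucleosomes. The samples were frozen hypothalamus, liver and muscle of 3 unrelated post-pubertal Brahman heifers, an indicine (Bos indicus) breed, with the same 3 animals (2047, 2054 and 2057) in each tissue group and no treatment in any of them. Each tissue was taken whole, so every list mixes many cell types, and a smaller share of cells with an open region cannot be told apart from less opening in each cell. For each tissue the 3 libraries were combined into 1 list of peaks, so no value for a single heifer and no spread between heifers is given.

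Open chromatin marks promoters, where transcription starts, and distal elements such as enhancers that act on genes from a distance. Promoters of genes used by every cell are usually open in all tissues, whereas distal elements are opened by the factors of particular cell types. Hypothalamus and liver share few specialised cells, whereas resident macrophages (microglia in brain, Kupffer cells in liver), circulating leukocytes, endothelial cells and fibroblasts are found in all 3 tissues.

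The 608 regions made up 0.892% of the hypothalamus peaks searched (Wilson 95% interval 0.824 to 0.965%, counting error only). Among hypothalamus peaks that overlapped liver at all, 608 of 8815 (6.90%, interval 6.39 to 7.45%) had no muscle peak. The other 8207 lay in regions open in all 3 tissues. A further 7844 hypothalamus peaks overlapped muscle and not liver, and 51518 overlapped neither. Seen from liver, the regions held 614 of the 10465 liver peaks in the same range (5.87%, interval 5.43 to 6.33%). One liver peak lay across a pair of regions, 601 regions held 1 liver peak and 7 held 2, and for the latter the liver peak with the higher summit is described.

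Peak strength was read from the summit −log10 p, which the peak caller computed from the 3 heifers together, and from the area under that curve over the peak (AUC). In hypothalamus the regions were of middle strength. Their median summit −log10 p was 6.96 (lower and upper quartile 5.30 and 8.70, lowest 3.08, highest 23.5). Hypothalamus peaks shared with muscle and not liver had a median of 8.26, those open in all 3 tissues 16.05, and those found in neither other tissue 5.35. The median hypothalamus AUC was 1372 in the regions, 2028 in those shared with muscle, 8232 in those open in all and 645 in the rest. Median lengths followed the same order, at 650.5 bp for the regions, 921 bp with muscle, 1774 bp in all 3 and 475 bp in neither. Within the hypothalamus list the regions stood at percentile 59.8 of summit values at the median, and they ran from percentile 0.142 to 99.6.

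In liver the same regions were weak. Their median liver summit was 3.85, with quartiles at 3.62 and 4.20 and a range from 2.99 to 6.04, and the median liver AUC was 284, not far above the lowest AUC of about 200 that the liver list holds. In 331 of 608 regions (54.4%) the liver AUC was under 300. Their median percentile in the liver list was 21.1. Liver peaks that were also open in hypothalamus and muscle had a median summit of 4.81, those shared with muscle and not hypothalamus 3.89, and those shared with neither 3.74. Liver peaks of the regions were thus close in summit value to the other liver peaks that lacked 1 or both partners, and below those open in all.

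**Figure D1:**
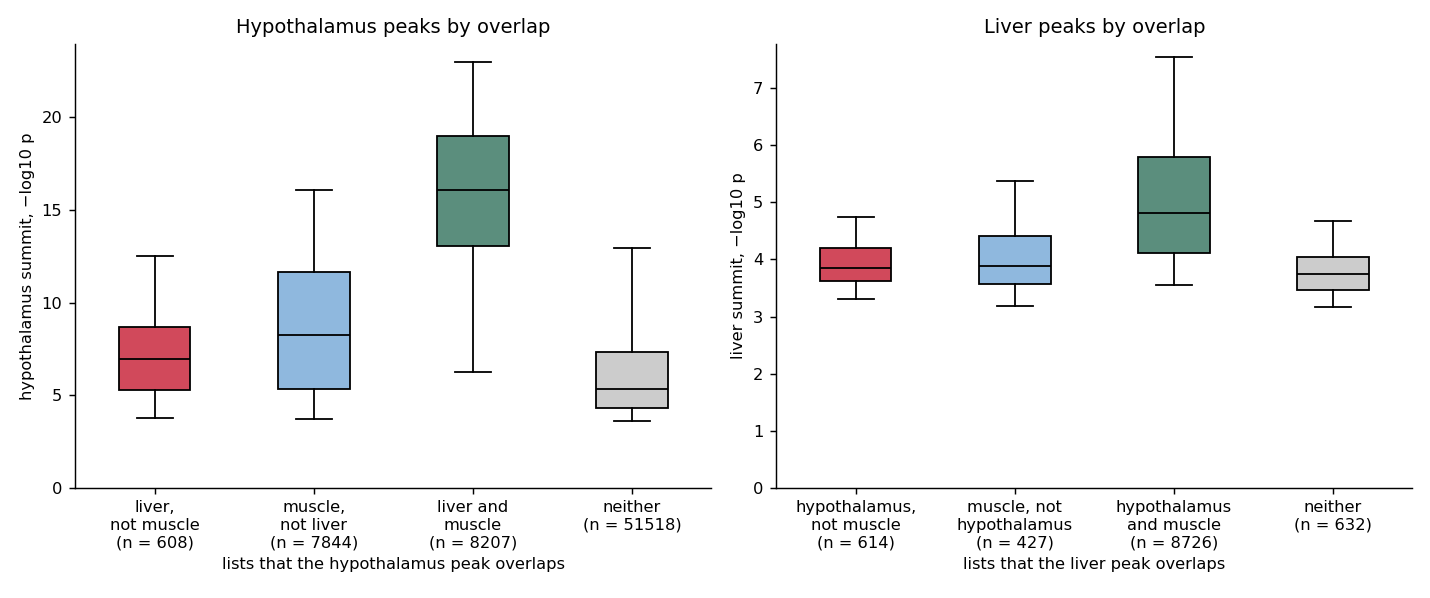
Summit −log10 p of hypothalamus peaks (left) and liver peaks (right), grouped by which other lists the peak overlaps. Boxes show quartiles and the median, whiskers the 5th and 95th percentiles. The regions described here, in red, have medians of 6.96 in hypothalamus and 3.84 over their 614 liver peaks, and both are below the peaks open in all 3 tissues (16.05 and 4.81). Left out on the right are 66 liver peaks that overlap no muscle peak but whose hypothalamus peak does.

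Among hypothalamus peaks with a liver partner, the share without a muscle peak fell at each step of the liver summit, and it was low where the hypothalamus summit was 10 or more. Where the liver summit was under 4, 381 of 1908 such peaks (20.0%, interval 18.2 to 21.8%) had no muscle peak. The share was 6.82% at 4 to 5 (210 of 3078), 0.745% at 5 to 6 (15 of 2013) and 0.110% at 6 or more (2 of 1816). By hypothalamus summit it was 31.6% under 5 (124 of 393) and 36.1% at 5 to 10 (397 of 1099), with overlapping intervals (27.2 to 36.3% and 33.3 to 39.0%), 2.92% at 10 to 15 and 0.345% at 15 or more. Where hypothalamus and liver were both open and the liver peak was strong, muscle almost always had a peak as well.

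**Figure D2:**
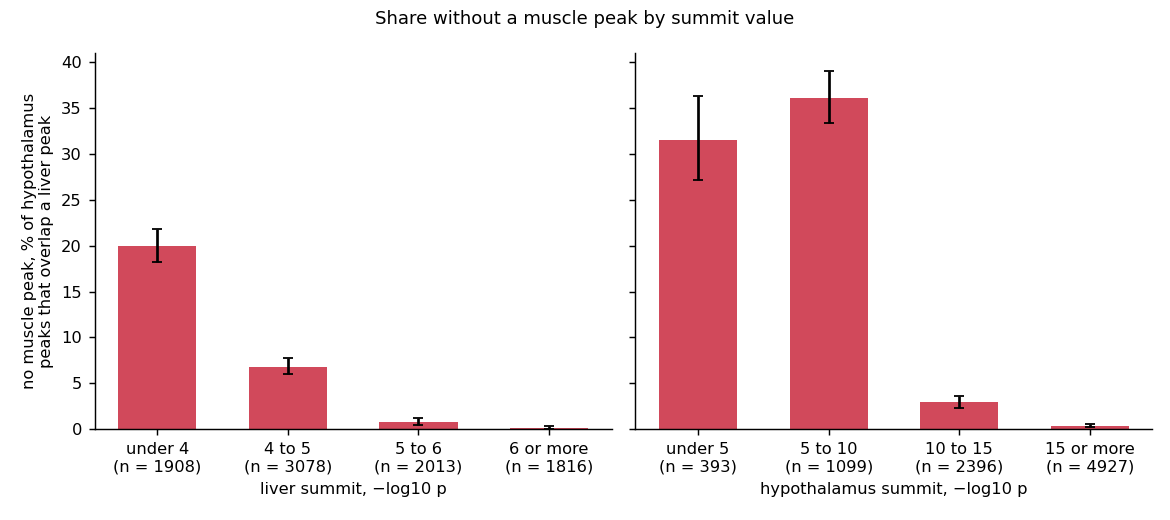
Percentage of hypothalamus peaks with a liver peak that have no muscle peak, by liver summit (left) and hypothalamus summit (right), both as −log10 p. Bars are shares and whiskers Wilson 95% intervals. The share is 20.0% where the liver summit is under 4 and 0.110% where it is 6 or more.

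Summits of the regions in hypothalamus and liver hardly moved together. Spearman's rank correlation between them was 0.09 over the 608 regions, against 0.54 over the 8207 regions open in all tissues. Both describe peaks of the same pair of lists. The liver summits of the regions spanned a narrower range, with quartiles of 3.62 and 4.20, than liver peaks open in all, with 4.11 and 5.79. The part of this narrower range in the lower correlation was not tested. The hypothalamus summit was the higher one in most regions, and the liver summit exceeded it in 44 of 608 (7.24%). At a summit −log10 p of at least 5, 484 regions passed in hypothalamus, 17 in liver and 15 in both. Lower summits in liver were not particular to these regions. Over all peaks searched the median summit was 5.99 in hypothalamus and 4.57 in liver. For peaks open in all tissues the medians were 16.05 and 4.81. The counts above were not made for other peaks, so whether they differ in these regions was not tested.

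**Figure D3:**
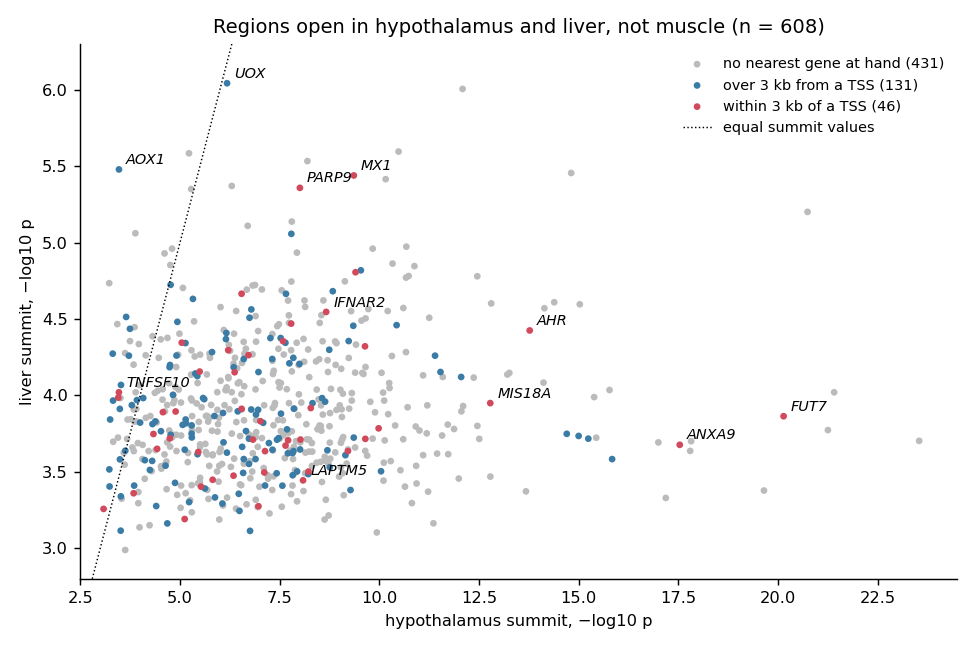
Hypothalamus summit (x axis) and liver summit (y axis), both −log10 p, of the 608 regions, one point each, coloured by the distance of the liver peak to the nearest annotated transcription start site where it is known. Most points lie between 3 and 5 on the liver axis, and the 44 points above the dotted line have the higher summit in liver.

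Within a region the liver peak was narrow and sat on the top of the hypothalamus peak. The whole liver peak lay inside the hypothalamus peak in 436 of 608 regions (71.7%), and the reverse was seen in 33. The median overlap was 333.5 bp, which covered 55.4% of the hypothalamus peak at the median. The hypothalamus summit fell inside the liver peak in 558 regions (91.8%). Summits in the 2 tissues were 47.5 bp apart at the median and within 100 bp of each other in 441 regions (72.5%).

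Measured in base pairs, few peaks lay close to the overlap limits of the rule. This does not hold for peak strength, since many liver peaks of the regions were weak and the set changed with the summit limits. For example, 1412 regions met the rule when only muscle peaks with a summit of at least 5 counted. The regions with the smallest overlap with liver were chr2:4868787-4869137 with 7 bp, chr22:60456651-60457390 with 58 bp and chr3:119985452-119986022 with 71 bp. The peaks closest to liver without touching it or muscle were chr14:13597093-13597672, 59 bp away, chr17:53513651-53513918, 107 bp away, and chr2:107199043-107199594, 122 bp away. On the muscle side the nearest regions were chr10:81244990-81245323 at 90 bp from a muscle peak, chr11:104038583-104039337 at 103 bp and chr27:6559380-6560430 at 110 bp. Peaks with a liver partner that failed through the smallest muscle overlap were chr21:65033301-65033855 with 52 bp, chr17:55385396-55385873 with 87 bp and chr9:25101621-25101720 with 100 bp. At the start limit of 1 Mb the first regions inside began at base 1259050 of chromosome 3, 1628198 of chromosome 14 and 2087218 of chromosome 2. The last ones left out began at 696338 of chromosome 28, 655119 of chromosome 1 and 609626 of chromosome 14. All positions are in the cattle assembly ARS-UCD1.2.

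The regions lay nearer to muscle peaks than hypothalamus peaks without either partner did. The nearest muscle peak was 15.6 kb away at the median (95% interval 12.6 to 18.8 kb), 48 regions (7.89%, interval 6.01 to 10.3%) had one within 1 kb, 238 (39.1%) within 10 kb and 66 had none within 100 kb. Hypothalamus peaks that overlapped neither other list lay 26.4 kb from muscle at the median, with 5.04% (interval 4.86 to 5.24%) within 1 kb and 29.3% within 10 kb. A region open in all 3 tissues was found within 10 kb of 131 of the 608 (21.5%), and the median distance to one was 36.3 kb.

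Where the regions fall relative to genes was read from the authors' annotation of liver peaks, which was at hand for all liver peaks in range on chromosomes 1 to 3 and on chromosome 4 up to 113 Mb (1730 peaks, with 107 of the regions among them). Over all 1730 liver peaks 56.7% lay within 3 kb of the transcription start site (TSS) of a protein-coding gene. Of the 107 regions 29 did (27.1%, interval 19.6 to 36.2%). The share was 63.4% (interval 60.9 to 65.8%, n = 1468) in liver peaks open in all 3 tissues, 15.2% (9.29 to 23.9%, n = 92) in those open in liver alone and 3.57% (0.985 to 12.1%, n = 56) in those shared with muscle only. With only liver summits under 4 compared, a choice made after the data were seen, the shares were 28.99% (20 of 69) for the regions, 58.5% (141 of 241) for peaks open in all, 20.4% (11 of 54) for liver alone and 3.57% (1 of 28) for liver and muscle. At liver summits of 4 to 5 they were 21.2% (7 of 33, interval 10.7 to 37.8%), 60.4% (316 of 523), 8.57% (3 of 35) and 0 of 19 (interval up to 16.8%). The regions' interval lay below that of peaks open in all and overlapped that of liver alone in each case. It lay above that of liver and muscle over all summits and under 4, and overlapped it at 4 to 5.

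Away from promoters, 51 of the 107 regions (47.7%) were intergenic, 23 (21.5%) lay in introns, 2 in exons and 2 just downstream of a gene. Intronic peaks made up 4.16% of the liver peaks open in all and 12.0% of those open in liver alone. The median distance to a TSS was 16.6 kb in the regions (interval 10.2 to 29.8 kb) and 24.7 kb in liver alone (interval 14.4 to 47.6 kb). On the first 97.0 Mb of chromosome 1, where the hypothalamus annotation was at hand as well, 7 of 17 regions lay within 3 kb of a TSS, beside 40 of 145 hypothalamus peaks shared with muscle, 120 of 188 open in all and 85 of 1490 in neither.

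**Figure D4:**
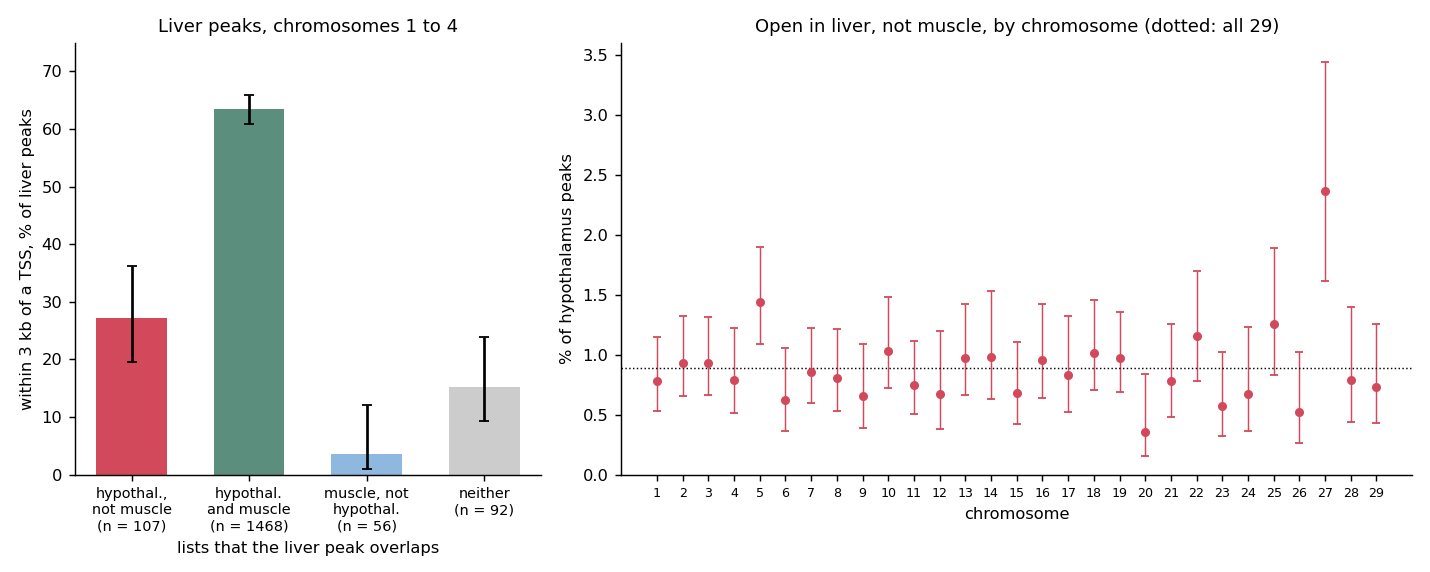
Left, percentage of annotated liver peaks within 3 kb of a TSS, by which other lists the peak overlaps. Right, percentage of hypothalamus peaks on each chromosome that are open in liver and not muscle. Whiskers are Wilson 95% intervals. The regions have 27.1% near a TSS against 63.4% for liver peaks open in all, and chromosome 27 stands highest at 2.36%.

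The 29 regions within 3 kb of a TSS on these chromosomes belonged to 28 genes by the nearest TSS, and in 19 of them the liver peak covered the TSS itself. Their median hypothalamus summit was 7.71 (interval 6.54 to 8.67) and that of the 78 others 6.73 (interval 6.06 to 7.42), with liver medians of 3.78 and 3.81. In 26 of the 29 the nearest muscle peak was over 3 kb away, and in 8 it was over 100 kb away. The genes are given below by their known roles. The grouping was made after the genes were seen and was not tested, and a nearest gene is not shown to be the gene that a region acts on.

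Several of the 28 genes take part in the response to interferons and in programmed cell death. The region with the highest lower-of-both summit near a TSS covered the promoter of MX1, an interferon-induced GTPase that blocks viruses (chr1:141673863-141674730). Its summit was 9.36 in hypothalamus and 5.44 in liver, and the nearest muscle peak was 5.45 kb away. The next was the promoter of PARP9, a member of the ADP-ribosyltransferase family induced by interferon (chr1:66987377-66988658), at 8.01 and 5.36. The TSS of DTX3L, a ubiquitin ligase and partner of PARP9, lay 142 bp from that of PARP9 and inside the same region. A region over the TSS of IFNAR2, a subunit of the type I interferon receptor, had summits of 8.67 and 4.55. At PARP14, from the same family as PARP9, the region over the TSS had 6.37 and 4.15, and another 2.18 kb upstream had 9.65 and 3.72. TNFSF10, which encodes the death ligand TRAIL, had one of the few promoters with the higher summit in liver, at 3.47 in hypothalamus and 4.02 in liver. CASP8, the initiator caspase of death receptors, had a region 2.57 kb inside the gene at 4.75 and 3.72.

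Genes of leukocytes and antigen presentation were a further part of the 28. The promoter of FGR, a Src family kinase of myeloid cells, had summits of 9.64 in hypothalamus and 4.32 in liver. That of SLC11A1, the metal transporter of macrophage phagosomes, had 9.21 and 3.64, and a further region 6.14 kb upstream had 7.09 and 3.82. LAPTM5, a lysosomal membrane protein of blood cells, had a region 0.878 kb inside the gene at 8.09 and 3.44. ITGB2, the beta subunit of the leukocyte integrins, had 7.12 and 3.496 over its TSS. CD1A, which presents lipid antigens, had 7.13 and 3.64, and LY75, an endocytic receptor of dendritic cells, had 4.57 and 3.89. ARHGAP30 had 8.02 and 3.71. All of these lay between 1.49 and 173 kb from the nearest muscle peak.

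The remaining genes of the 28 were of other kinds. ANXA9, AHR, MIS18A and EFCAB7 had the highest hypothalamus summits of the 28, whereas the others named here were below several genes given above. ANXA9, an annexin, had a summit of 17.5 in hypothalamus and 3.68 in liver. AHR, the ligand-activated transcription factor that senses xenobiotics, had a 2032 bp region with 13.8 and 4.43 and a hypothalamus AUC of 8345, and no muscle peak within 559 kb. MIS18A, which helps load centromeric histone, had 12.8 and 3.95. EFCAB7 had 9.98 and 3.78. GPR39, a zinc-sensing receptor, had 7.79 and 4.47, RBM43, an RNA-binding protein, 6.54 and 4.67, CDC7, a kinase that starts DNA replication, 7.71 and 3.71, and CADPS2, a protein of dense-core vesicle release, 6.83 and 3.71 with the nearest muscle peak 572 kb away. COPS7B, MOB3C, TMIGD3, TRIM46, ADAMTSL4, ARPC2 and ZDHHC19 complete the list, with hypothalamus summits from 4.89 to 8.22 and liver summits from 3.40 to 3.91.

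**Figure D5:**
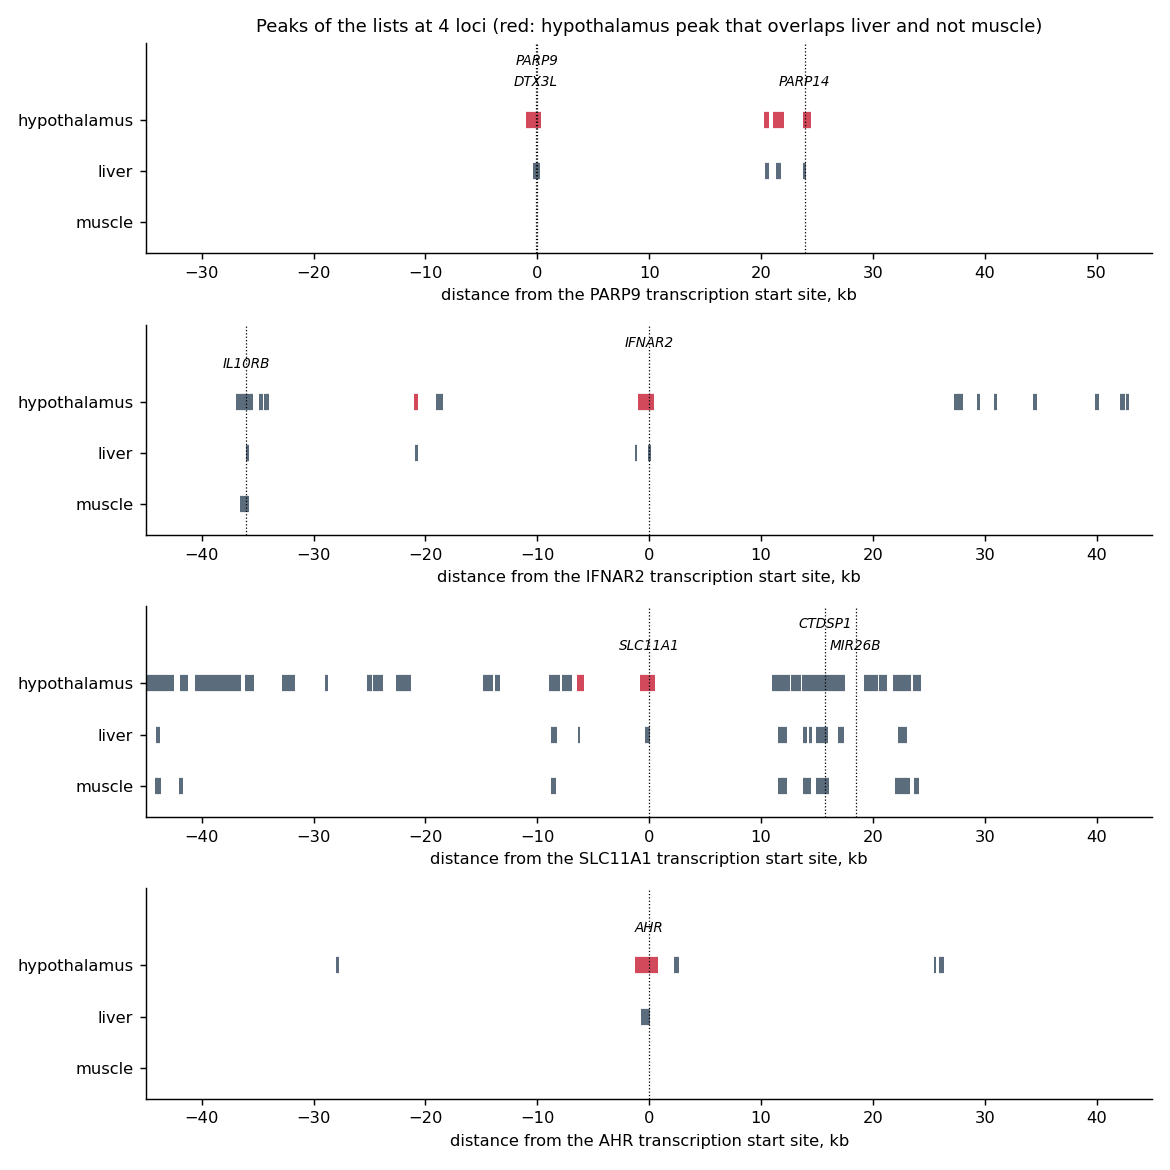
Peaks of each list around 4 promoters, by distance in kb from the TSS, with the TSS of other annotated genes as dotted lines. Bars are peaks drawn to scale with a minimum width of 0.25 kb, and red bars are the regions described here. At PARP9 and PARP14 all 4 hypothalamus peaks are such regions and muscle has none, whereas around SLC11A1 there are 22 hypothalamus, 10 liver and 8 muscle peaks.

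The next 10 regions are those with the highest lower-of-both summit among regions not known to lie within 3 kb of a TSS. The highest of all 608 lay 6.165 kb from a TSS, in an intron of UOX (chr3:59706825-59707445). UOX encodes urate oxidase, a liver enzyme of purine breakdown. Its summits were nearly equal, 6.18 in hypothalamus and 6.04 in liver, and its liver AUC of 1212 exceeded that in hypothalamus, 1014. The others had no annotated gene at hand, so their distance to a promoter is unknown. They were chr6:36301196-36302835 (12.1 in hypothalamus, 6.01 in liver), chr10:7624913-7626441 (10.5 and 5.60), chr18:8074547-8075489 (8.20 and 5.53) and chr27:33110827-33112297 (14.8 and 5.46). A pair on chromosome 16 followed, at 37238196-37238698 (10.2 and 5.42) and 37259355-37259833 (6.298 and 5.37). The last of the 10 were chr28:25430183-25430581 (5.28 and 5.35), chr18:62454709-62454914 (5.23 and 5.58) and chr29:40190549-40197819 (20.7 and 5.20). These 10 were 18.8 to 509 kb from muscle.

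A few other regions more than 3 kb from a TSS are named here after their values were seen. They were picked by gene from the 78 such regions on chromosomes 1 to 4 and say nothing of the rest, whose nearest genes included KRTAP11-1, a hair keratin-associated protein, CRYAA, a lens crystallin, the ion channel genes KCNA2 and CACNA2D1, and SF3B1, a splicing factor. A region in an intron of IFNAR2 had 7.53 in hypothalamus and 4.38 in liver, and its nearest TSS, 15.1 kb away, was that of IL10RB, a receptor subunit for interleukin 10 and type III interferons. IFNAR1, the other subunit of the type I interferon receptor, had one 44.9 kb from its TSS at 6.06 and 3.29. IKZF1, a lymphoid transcription factor, INPP5D, a phosphatase of blood cells, and PIK3CG, a leukocyte kinase, had intronic regions at 5.23, 7.57 and 9.36 in hypothalamus, with 3.30, 3.41 and 3.72 in liver. RUNX3, a transcription factor of T cells, was 71.9 kb from a region at 9.54 and 4.82. CXCR4, a chemokine receptor, was the nearest gene of a pair of regions 18.9 and 191 kb upstream.

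Some genes best known from liver were also nearest to a region and were likewise picked after their values were seen. CP, which encodes the copper-carrying plasma protein ceruloplasmin, had a pair of regions 7.45 and 9.14 kb upstream. Their summits were 8.83 and 6.89 in hypothalamus and 4.68 and 3.58 in liver. AHSG, the gene of fetuin-A, had one 4.005 kb upstream at 6.18 and 3.63. AOX1, a hepatic aldehyde oxidase, was the nearest gene to the region with the widest lead of liver: its hypothalamus summit of 3.47 stood at percentile 2.40 of that list and its liver summit of 5.48 at percentile 73.4.

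Outside chromosomes 1 to 4 a nearest gene was at hand for 70 regions, all from a list of liver peaks that the authors had set apart as lacking a counterpart in taurine cattle, so that these names are not a fair sample of the regions. Within 3 kb of a TSS lay 17 of them. TCIRG1, a subunit of the vesicular proton pump, had 9.40 in hypothalamus and 4.81 in liver. LRCH4 had 7.58 and 4.36, TBC1D10A, a GTPase-activating protein, 5.04 and 4.35, and PTPN6, the phosphatase SHP-1 of blood cells, 8.28 and 3.92. FUT7, a fucosyltransferase that makes selectin ligands of leukocytes, was the nearest gene to the region with the largest hypothalamus AUC of all, 70140 over 19.04 kb, against a liver AUC of 299.5. In all, 177 of the 608 regions had a nearest gene at hand and 431 had none.

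Very broad hypothalamus peaks accounted for the other extreme of the AUC. After the FUT7 region came chr7:17971068-17985277 (64643 over 14.2 kb), chr25:41764223-41775219 (45187), chr29:40190549-40197819 (29070) and chr28:34900757-34909925 (29010). In liver they held short peaks with an AUC between 266 and 509. An AUC above 5000 was reached in hypothalamus by 42 regions. The largest liver AUC was 1332, and it belonged to a region near DEFB5. The UOX intron followed, then a region near DEFB3 with 1148, chr6:36301196-36302835 with 1098 and chr10:7624913-7626441 with 1082. The regions with the lowest liver percentile relative to hypothalamus were chr5:57231933-57237937 (19.6 in hypothalamus, 3.38 in liver), chr28:34900757-34909925 (17.2 and 3.33), chr19:25017880-25021565 (23.5 and 3.70), chr6:55640708-55643126 (13.7 and 3.37) and chr7:15024837-15027464 (17.8 and 3.64). At the opposite end, AOX1 was followed by chr6:91091932-91092350 (3.22 and 4.73), chr18:51064943-51065372 (3.88 and 5.06), chr22:52537994-52538293 (3.43 and 4.47) and a region 175 kb from TBL1XR1 (3.65 and 4.51).

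Lists of marker and pathway genes were compared with the regions where a TSS was at hand, which left only 1 to 7 genes of each list, too few to describe a list as a whole. A TSS was at hand only for genes that the authors' annotation named as nearest to a peak. Genes nearest to no peak are missing, so the shares with a peak may exceed those over every gene. Of the 1425 genes with a TSS at hand on the annotated part, 30 (2.11%) had a region within 3 kb. Any hypothalamus peak was there in 84.3% of them, a liver peak in 65.3% and a muscle peak in 76.2%. Of the macrophage, microglia and Kupffer cell list 2 genes could be placed. LAPTM5 had a region, and RUNX1 had a hypothalamus peak only. No region was found at the genes placed from the lists for endothelial cells (1), hepatocytes (3), hypothalamic neurons and neuropeptides (1), astrocytes and oligodendrocytes (3), skeletal muscle (3), epithelial junctions and keratins (1), cilia (7), sterol and fatty acid synthesis (7), amino acid, ammonia and one-carbon enzymes (6), nuclear and hormone receptors (2), developmental transcription factors (5), the thyroid, growth hormone and IGF axis (2), the circadian clock (1) and complement, acute phase and heat shock (1). The nearest gene at any distance was also counted, for the 177 regions with one at hand. AHSG and FGG of the hepatocyte list and RXRA of the receptor list were then added, and no gene of the other lists. The other 431 regions could not be checked.

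The same markers checked the tissue labels only in part. Of the muscle genes, CHRNA1 had a muscle peak alone within 3 kb of its TSS, DES had muscle and hypothalamus peaks, and MSTN had none in any list. OLIG1 and CLDN11, genes of oligodendrocytes, had hypothalamus peaks only, and S100B, a gene of astrocytes, had hypothalamus and muscle peaks. The hepatocyte genes AHSG and TF had a hypothalamus peak and no liver peak within 3 kb of the TSS, and APOA2 had peaks in all 3 lists. The endothelial gene ERG had a muscle peak alone, and SST, a hypothalamic neuropeptide gene, had none. In these few genes the liver list thus had a peak at 1 of the 3 hepatocyte genes, and the part of the small liver list (10465 peaks in range, beside 28554 in muscle) in this was not tested. Among genes of the other lists, picked after their values were seen, FTCD and IGFBP1 had a liver peak alone. HGD and NR1I2 had no peak in any list.

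Along the chromosomes the regions were spread widely. Chromosome 5 held the most, 49 (1.44% of its hypothalamus peaks, interval 1.09 to 1.90%), followed by 33 on chromosome 19, 32 on chromosome 3 and 30 on chromosome 2, and chromosome 20 held the fewest, 5 (0.358%, interval 0.153 to 0.835%). With regions joined where they lay within 50 kb of each other, 134 of the 608 (22.0%) fell into 55 clusters, 12 of which held 3 or more. The same share was not computed for other hypothalamus peaks, so it cannot tell whether the regions cluster more than peaks in general. The next hypothalamus peak of any class was 2828.5 bp from a region at the median. At PARP9 and PARP14, 4 regions stood within 25.5 kb, and they were the only hypothalamus peaks in that stretch. A cluster on chromosome 18 had 4 regions in 47.5 kb, with liver summits up to 5.53, and 3 regions near SLC6A6 on chromosome 22 stood within 4.23 kb.

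Chromosome 27 had the highest share, with 26 regions or 2.36% of its hypothalamus peaks (interval 1.62 to 3.43%). Of these, 21 lay between 6 and 8 Mb, where they made up 17.9% of 117 hypothalamus peaks (interval 12.0 to 25.9%). The nearest gene, known for 17 of them, was in each case a beta-defensin gene, a multigene family of antimicrobial peptides. Among the 177 regions with a nearest gene at hand, DEFB10 was nearest to 6 and DEFB3 to 4, more than any other gene, and PARP14 followed with 3. The other 431 regions had no gene at hand, so the ranking does not cover them. The largest cluster of all, 12 regions in 160 kb, lay there. These regions were weaker in hypothalamus than the rest, with a median summit of 3.85 and a range from 3.23 to 6.58, and their median liver summit was 3.62. Their liver AUC was larger than the hypothalamus AUC in 13 of 21, compared with 34 of the 587 regions elsewhere. Muscle peaks were not far off, with 82 in the same window and a median distance of 1497 bp. Reads that align to several copies were shared among them by the peak caller, so peaks at such near-identical genes are uncertain, and the part of multi-mapping reads in the cluster was not tested.

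Which regions met the rule depended on how many peaks each list held. When the same number of peaks was taken from each list, the 11359 strongest by summit on chromosomes 1 to 29, 621 regions met the rule, but only 34 of them were among the 608. Their median hypothalamus summit was 13.8 and 53.8% of the 80 annotated ones lay near a TSS. When all lists were limited to summits of at least 5, 52 regions met the rule and 15 of these were among the 608. MX1, PARP9 and the UOX intron were among the 15 regions that kept a summit of 5 in both tissues with the muscle list left whole.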

How the data were processed

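ATAC-seq libraries of 3 heifers per tissue (9 in all) were aligned by the authors with HISAT2 to ARS-UCD1.2, allowing up to 10 alignments per read. The authors called peaks with Genrich 0.6.1 on the 3 libraries of a tissue together at p ≤ 0.01, with multi-mapping reads shared out and the p-values of the replicates combined by Fisher's method. The deposited lists give for each peak a signal value, the area under the −log10 p curve (AUC), the −log10 p at the summit and the offset of the summit. Depth per library is not in them and no count can be made, so the precision of single peaks is unknown. The paper gives mapping statistics per sample, which were not used here. Summit values were compared between tissues with no adjustment for depth. Overlaps were computed in Python 3 on the deposited coordinates and checked with bedtools and on simulated data. Wilson and median (binomial order) 95% intervals cover counting error only, and p-values were not computed. The authors' ChIPseeker annotation gave nearest genes and TSS distances, for chromosomes 1 to 4 and part of the other chromosomes; no value, fold change or p-value was taken from it. Percentiles were ranks within a list over the range searched. Sequence composition and motifs were not analysed here. The genes and regions named were the 10 within 3 kb of a TSS and the 10 others with the highest lower-of-both summit, the 5 with the largest AUC in each list, the 5 with the largest percentile difference either way, list genes with a region near their TSS, the 5 genes nearest to the most regions, and 3 peaks on each side of each limit; all others, and the full list of 28 promoter genes, were named after their values were seen. The regions and lists were chosen with earlier results of these data known.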

Additional observations from a re-analysis of the deposited data

Results flagged for a closer look

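The rule left out chromosome X, the first megabase of each chromosome and sequences not placed on a chromosome, and the same overlap was found there. It was met by 17 of 1895 hypothalamus peaks on chromosome X (0.897%, Wilson interval 0.561 to 1.43%), by 9 of 956 in the first megabase of chromosomes 1 to 29 (0.941%, interval 0.496 to 1.78%) and by 72 of 7500 on unplaced sequences (0.960%, interval 0.763 to 1.21%). All 3 intervals include the 0.892% of the range searched.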

How the results depend on the processing

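The number of regions stayed within 1.5 times of 608 under 7 of 10 alternatives. It was 52 with summits of at least 5 in all lists (median hypothalamus summit 9.16, median liver summit 5.43, median distance to muscle 27.7 kb, 50.0% of 8 annotated regions near a TSS). It was 15 with that limit in hypothalamus and liver only (8.01, 5.42, 49.7 kb and 50.0% of 4). It was 1412 when only muscle peaks with a summit of at least 5 counted, an alternative chosen after the data were seen (8.35, 3.92 and 26.9 kb). With 200 bp around each summit, 803 regions met the rule, 519 of them among the 608, and the medians were 8.01, 3.99 and 4.48 kb. With equal numbers of peaks the medians were 13.8, 4.07 and 41.3 kb, and 53.8% lay near a TSS. Ranked by AUC per bp, the liver percentile was 25.8 instead of 21.1. All other values, 33 in number, moved by less than their 95% interval or, for the number of regions, by less than 1.5 times. They cover overlap of at least 0.5 of the shorter peak, no muscle peak within 1 kb, chromosome X added, no start limit, TSS distance and reference point, and the defensin window left out (chosen after the data were seen).

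No paired analysis was possible because each list combines the heifers of a tissue, and for the same reason no run without a heifer was made. GC content and motifs around the summits were not run for a window of any length, since no genome of the build was used here. The peak calls carry no depth, so a region missing from muscle and a region below its calling limit cannot be told apart.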
